A study of Mus musculus with 24 samples.

Results

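The 3 PAR bZIP transcription factors Dbp, Tef and Hlf and their counterpart Nfil3 were followed in mouse liver over the day at 2 ages. They were taken by gene name, and all 4 were found among the 43629 gene identifiers of the deposited tables, each with 1 entry per library. Livers came from wild-type C57BL/6 mice that were young (about 4 months) or old (about 19 months). Collection was every 4 h from ZT2 to ZT22, where ZT (zeitgeber time) counts hours from lights on, so that 6 times were sampled. With 2 replicates for each of the 12 combinations of age and time there were 24 libraries, and neither age carried a transgene, a deletion or a treatment by the labels. The labels do not say whether the replicates came from separate animals, so each p-value measures the spread between these libraries, which may be technical.

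PAR bZIP factors are named for a domain rich in proline and acidic amino acids next to a basic leucine zipper. Dbp (D site of the albumin promoter binding protein), Tef (thyrotroph embryonic factor) and Hlf (hepatic leukemia factor) activate genes through the D-box. Nfil3, also called E4BP4, binds the same element and represses. Dbp is a classic target of the clock activator pair CLOCK and BMAL1 (Arntl), which bind the E-box, and Nfil3 is repressed by REV-ERB proteins (Nr1d1, Nr1d2) through ROR elements. In liver the PAR bZIP factors are known for their control of drug and lipid metabolism.

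Depth was 0.435 to 0.683 gigabases of mapped sequence per library, read from the ratio of deposited coverage to FPKM, and 15989 to 16690 genes were above 0. All 10 hepatocyte markers were tested, and their summed level ran from 76210 to 106397 scaled TPM in young and from 81022 to 109685 in old libraries, with 0 of 10 past the limma threshold for age. Markers of NK cells, which need Nfil3 to develop, summed to 11.4 to 22.8 in young and 15.2 to 29.7 in old libraries, with 1 of 12 at a level that could be tested. That gene was Rora, which averaged 14.5 in young and 15.1 in old liver and so made up most of the sum. Each other NK marker averaged at most 1.0. Rora also stands on the lists of ROR and D-box clock genes, so the sum is no measure of NK cells alone. Young ZT18 replicate 2 held pancreatic acinar transcripts (4445 scaled TPM summed over 11 markers, against at most 64.0 elsewhere). Old ZT14 replicate 1 held 3.42% mitochondrially encoded RNA, the lowest share of the 24 libraries, and old ZT14 replicate 2 was next at 8.74%. Leaving out young ZT18 replicate 2 and old ZT14 replicate 1 together is among the alternatives given at the end. Old ZT14 replicate 2 stays in that fit.

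Motif letters in the promoters are shown first because the windows of Tef and Nfil3, which had opposite daily patterns, held different motifs. RefSeq (GRCm38.p6) lists 5 promoter windows for the members, each running from 250 bases before to 50 after a start site. These were searched on both strands for the E-box CACGTG, the ROR element TAGGTCA and the D-box as TTATGNAA or TTACGNAA. Each of the 2 Tef windows held 1 E-box, Nfil3 held 1 ROR element, and no motif was matched in the windows of Dbp and Hlf. Of all 32851 windows, 7.15% held the E-box, 2.61% the ROR element and 3.99% the D-box. A match is a description of letters and not a binding site. Sites outside these windows were not searched, and no link between the letters and the daily patterns was tested. Capitals mark the motif in each line, 5′ to 3′ on the strand of the gene.
Tef, first promoter, plus strand, chr15:81802534-81802563: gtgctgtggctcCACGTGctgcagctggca
Tef, other promoter, plus strand, chr15:81811264-81811293: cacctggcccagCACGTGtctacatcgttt
Nfil3, minus strand, chr13:52981033-52981062: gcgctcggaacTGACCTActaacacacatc

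Dbp had the widest daily range of the 4. The gene (ENSMUSG00000059824) lies on chromosome 7 (45705088 to 45710155, plus strand, GRCm38), and its coding transcripts have 3 to 4 exons in GENCODE M21. TPM values, which are levels per transcript length and library total, were scaled for library composition and are called scaled TPM throughout. In young liver, Dbp was at 0.541 and 0.937 scaled TPM at ZT2, 40.2 and 38.8 at ZT6, 115.0 and 92.5 at ZT10, 23.8 and 27.7 at ZT14, 5.11 and 5.28 at ZT18, and 2.22 and 2.48 at ZT22. In old liver it was at 1.47 and 0.906 at ZT2, 48.2 and 43.4 at ZT6, 97.1 and 77.4 at ZT10, 30.5 and 20.5 at ZT14, 4.49 and 4.72 at ZT18, and 3.38 and 1.28 at ZT22. Group means were lowest at ZT2 and highest at ZT10 at both ages, although 1 old library of ZT22, at 1.28, lay below 1 of ZT2, at 1.47. Between group means, ZT10 was 141 times ZT2 in young and 73.5 times in old liver. The steepest step was the rise from ZT2 to ZT6, 53.5 times in young and 38.6 times in old. Young and old libraries overlapped at ZT2, ZT10, ZT14 and ZT22. Both old libraries lay above both young ones at ZT6, as for 13.3% of all tested genes, and below them at ZT18, as for 14.3%. Since whole tissue was sequenced, fewer cells of a type and less RNA per cell cannot be told apart in any of these values.

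Sphk2, a sphingosine kinase gene on the other strand (chromosome 7, 45709467 to 45718002), shares 539 exonic bases with Dbp in GENCODE M21, out of 2993 exonic bases of Dbp. Libraries were strand-specific by the labels, but whether the counting used strand is not given in the sources used here. Sphk2 averaged 12.2 ± 3.43 scaled TPM in young and 13.9 ± 4.37 in old liver (mean ± SD, n = 12 libraries per age). Its lowest group mean fell at ZT10 at both ages, the time at which Dbp was highest.

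Tef (ENSMUSG00000022389, chromosome 15, 81802421 to 81826861, plus strand) followed Dbp with a smaller range. In young liver it was at 5.88 and 8.82 scaled TPM at ZT2, 29.6 and 31.8 at ZT6, 83.8 and 76.8 at ZT10, 52.3 and 62.9 at ZT14, 31.5 and 44.1 at ZT18, and 11.5 and 18.5 at ZT22. In old liver it was at 6.99 and 8.61 at ZT2, 36.8 and 42.9 at ZT6, 71.8 and 71.6 at ZT10, 63.3 and 62.5 at ZT14, 35.2 and 26.6 at ZT18, and 18.9 and 17.3 at ZT22. ZT10 was again the highest and ZT2 the lowest group at both ages, 10.9 times apart in young and 9.2 times in old. Tef fell more slowly than Dbp after its highest point: at ZT18 the young libraries of Tef were still above 31, while those of Dbp were near 5. Old lay above young without overlap at ZT6 and below it at ZT10, as for 13.3% and 19.8% of all tested genes, and the ages overlapped at the other 4 times.

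Hlf (ENSMUSG00000003949, chromosome 11, 90336536 to 90390895, minus strand) had the lowest daily mean of the 3 activators in both ages, 12.3 ± 5.03 scaled TPM in young and 12.1 ± 2.87 in old (SD, n = 12 libraries per age). In young liver it was at 5.59 and 6.22 at ZT2, 13.0 and 20.5 at ZT6, 15.2 and 17.3 at ZT10, 18.7 and 12.1 at ZT14, 13.3 and 9.73 at ZT18, and 5.89 and 10.1 at ZT22. In old liver it was at 7.23 and 11.7 at ZT2, 12.7 and 17.7 at ZT6, 10.6 and 12.2 at ZT10, 11.5 and 15.4 at ZT14, 11.6 and 8.5 at ZT18, and 11.2 and 14.7 at ZT22. The highest and lowest group means, at ZT6 and ZT2, were 2.83 times apart in young but 1.6 times in old. Old libraries lay above young ones without overlap at ZT2 and ZT22, as for 16.5% and 11% of all tested genes, and below them at ZT10, as for 19.8%. At the other 3 times they overlapped. Replicates of Hlf spread widely: the 2 young libraries of ZT22 differed by more than the young means of ZT18 and ZT22 did.

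Nfil3 (ENSMUSG00000056749, chromosome 13, 52967209 to 52981073, minus strand) ran opposite to the activators. In young liver it was at 39.8 and 30.2 scaled TPM at ZT2, 7.96 and 8.98 at ZT6, 5.26 and 5.87 at ZT10, 11.3 and 11.8 at ZT14, 17.1 and 20.7 at ZT18, and 23.1 and 18 at ZT22. In old liver it was at 34.4 and 36.7 at ZT2, 7.27 and 10.1 at ZT6, 9.84 and 12.3 at ZT10, 11.1 and 14.6 at ZT14, 18.1 and 17.4 at ZT18, and 21.7 and 21.3 at ZT22. Nfil3 was highest at ZT2 at both ages and fell about as steeply to ZT6, 4.13 times in young and 4.09 times in old. The lowest group was ZT10 in young and ZT6 in old. At ZT10 both old libraries lay above both young ones, as for 16.1% of all tested genes, and at the other 5 times the ages overlapped.

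**Figure D1:**
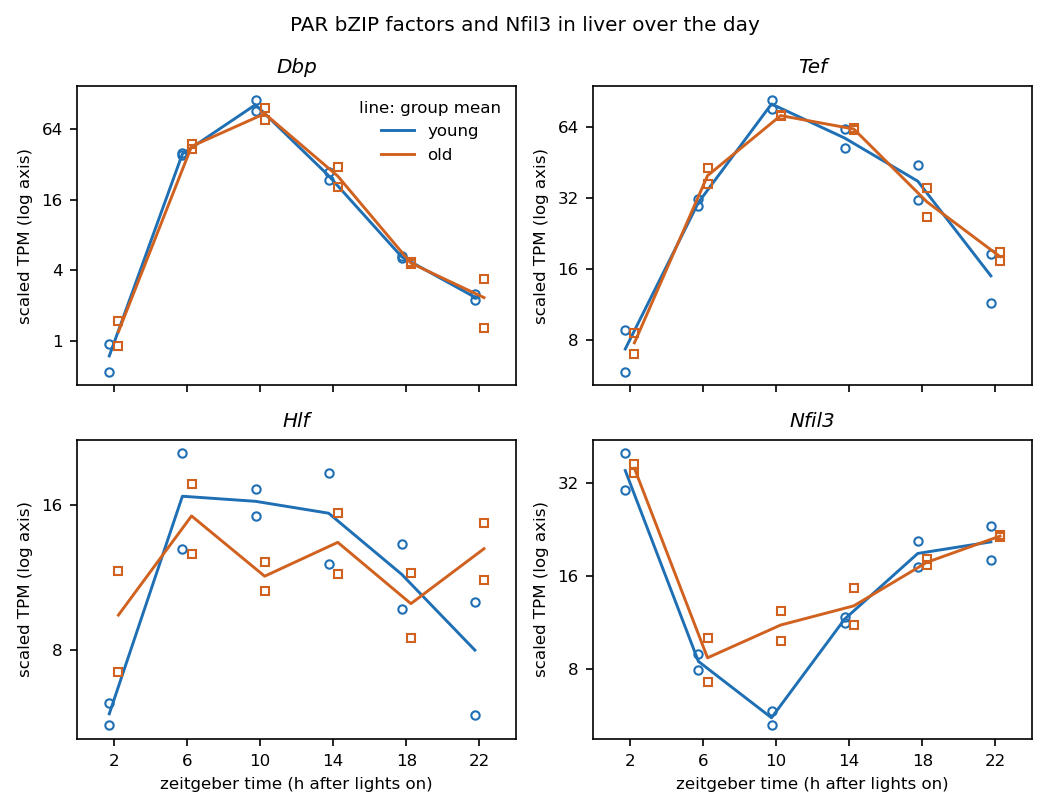
Scaled TPM on a log axis against zeitgeber time for Dbp, Tef, Hlf and Nfil3. Points are single libraries (circles young, squares old, set slightly apart), and lines join the means of the 2 libraries of a group. Dbp and Tef overlay closely between the ages with their highest means at ZT10, the old line of Hlf is flatter, and Nfil3 at ZT10 is at 9.84 and 12.3 in old against 5.26 and 5.87 in young.

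The first comparison asked whether each member has a 24-h rhythm at each age. A cosine wave of 24 h was fitted per age to log2(scaled TPM + 0.5) with limma over 12261 genes, and a Benjamini-Hochberg adjusted p under 0.05 was called. Amplitude here is the log2 difference between fitted peak and trough. All 4 members were rhythmic in young liver and 3 of 4 in old, where 10.7% and 8.96% of all tested genes were called. At both ages the same 3 members, Dbp, Tef and Nfil3, were called, against 5.46% of all tested genes.

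Dbp had an amplitude of 5.94 (SE 0.666, limma adjusted p = 1.93e-05) in young and 5.76 (SE 0.666, adjusted p = 2.82e-05) in old. That of Tef was 3.10 (SE 0.351, limma adjusted p = 2.19e-05) in young and 2.83 (adjusted p = 6.44e-05) in old. For Nfil3 it was 2.09 (SE 0.372, limma adjusted p = 0.00237) in young and 1.47 (SE 0.372, adjusted p = 0.0375) in old. Hlf was rhythmic in young at 1.35 (SE 0.297, limma adjusted p = 0.013), and its old value was 0.25 (SE 0.297, adjusted p = 0.88), with a 95% interval from -0.37 to 0.86. An amplitude cannot be below 0, so this symmetric interval is only rough, and that it spans 0 tests nothing. Without ZT10 at both ages, the young calls of Hlf (amplitude 1.53, adjusted p = 0.0692) and Nfil3 (1.80, adjusted p = 0.0991) were lost. The old call of Nfil3 was lost with the deposited TPM (amplitude 1.26, adjusted p = 0.116) and without either library of old ZT2 (1.31 and 1.29, adjusted p = 0.0786 and 0.07).

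A cosine described the members unequally well. It accounted for 87.5% and 90.1% of the variance between the 6 group means of Dbp in young and old, and for 91.3% and 87.2% in Tef. For Nfil3, whose fall from ZT2 to ZT6 is abrupt, the shares were 77.6% and 62.4%, and for Hlf 79.7% and 14.1%. A limma F test for any difference between the 6 times, which assumes no wave shape, called 6.86% of genes in young and 5.65% in old. By that test Nfil3 had an adjusted p of 9.89e-06 in young and 0.00016 in old, and Dbp held rank 2 of the 12261 genes by p at both ages. Hlf had an adjusted p of 0.0303 in young and 0.721 in old.

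Fitted peaks placed the activators near the middle of the sampled day and Nfil3 near its end. In young liver Dbp peaked at ZT 10.60 (SE 0.428 h), Hlf at ZT 11.30 (SE 0.837 h) and Tef at ZT 12.43 (SE 0.433 h). Dbp and Hlf, neighbours in that order, lay within their SE of each other. The SE ranges of Hlf and Tef overlapped as well, so the place of Hlf in the order is not settled. Nfil3 had its fitted peak at ZT 22.46 (SE 0.679 h). Its group means were highest later, at ZT2, at both ages. The cosine held only 77.6% of their variance in young and 62.4% in old, so the SE understates the doubt about this peak. In old liver the peaks were at ZT 10.29 for Dbp, 12.11 for Tef and 22.67 (SE 0.969 h) for Nfil3. The old peak of Hlf, with an SE of 4.55 h, was not determined by these data.

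**Figure D2:**
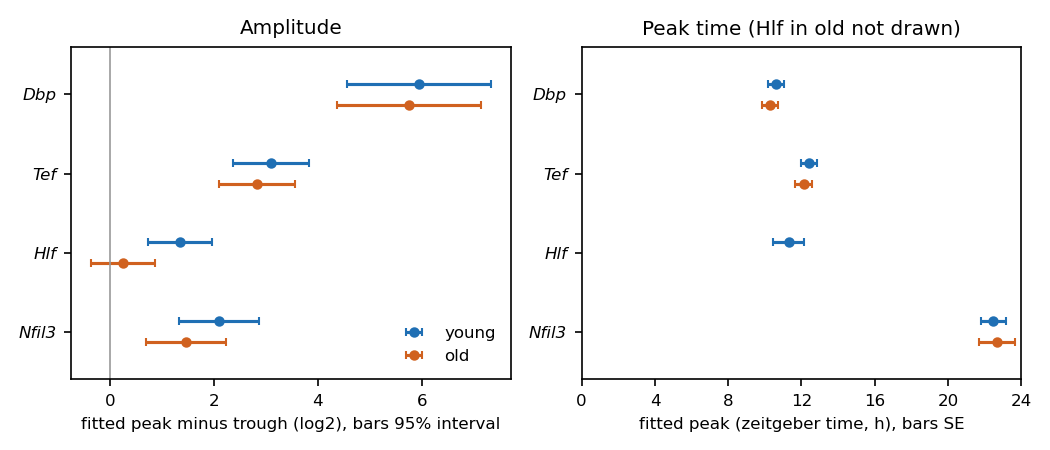
Fitted amplitude (left, log2 difference between peak and trough, bars are 95% intervals) and fitted peak time (right, zeitgeber time in h, bars are SE) of the 4 members in young and old liver. The intervals of both ages overlap broadly for Dbp, Tef and Nfil3, and for Hlf only between 0.74 and 0.86. The old amplitude of Hlf is 0.25. Its interval is drawn symmetric and reaches below 0, where an amplitude cannot lie.

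The next comparison asked whether these rhythms differ between the ages, by a limma F test on the difference in cosine and sine. None of the 4 members passed, nor did any of the 12261 genes (0%, with 429 genes at an unadjusted p under 0.05). Old minus young amplitude was -0.18 for Dbp (95% interval -2.14 to 1.77), -0.27 for Tef (-1.30 to 0.76) and -0.63 for Nfil3 (-1.72 to 0.46). For Hlf it was -1.10 (95% interval -1.98 to -0.23), with an unadjusted limma p of 0.0419 and an adjusted p of 1. That interval is rough too, because the old amplitude of Hlf lies near 0. Hlf thus passed the rhythm test in young and missed it in old, but a difference between its rhythms was not shown after adjustment over all genes. Peak shifts from young to old were -0.31 h for Dbp (95% interval -1.59 to 0.971), -0.32 h for Tef (-1.66 to 1.01) and 0.21 h for Nfil3 (-2.24 to 2.67).

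Levels averaged over the day were compared with limma on the 12 age and time groups. None of the 4 members passed the threshold, against 1.64% of all tested genes (1.14% higher and 0.498% lower in old). Dbp averaged 29.6 ± 38.0 scaled TPM in young and 27.8 ± 32.7 in old (SD, n = 12 per age). Old minus young on the log2 scale was 0.01 (SE 0.122, limma adjusted p = 0.983). Tef averaged 38.1 ± 26.3 and 38.5 ± 23.9 (log2 0.08, SE 0.0965, adjusted p = 0.869). Hlf differed by log2 0.05 (95% interval -0.22 to 0.33, limma adjusted p = 0.943). Nfil3 averaged 16.7 ± 10.5 in young and 17.9 ± 9.45 in old, a log2 difference of 0.18 (SE 0.0819) with an unadjusted p of 0.039 and a limma adjusted p of 0.39. Without ZT10 that difference was 0.036 (limma adjusted p = 0.913). Per transcript length, the order of the daily means was Tef, Dbp, Nfil3 and Hlf at both ages, and the SDs, which hold the daily range, overlap between all neighbours.

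At single times, 0 of 24 limma tests of members against age passed, and 2 had an unadjusted p under 0.05. Of all tested genes, 0% were called at ZT2 and ZT6, 0.53% at ZT10, 0.0408% at ZT14, 0.0245% at ZT18 and 0.00816% at ZT22. The 2 were Nfil3 at ZT10 and Hlf at ZT22. Nfil3 at ZT10 was higher in old by log2 0.93 (SE 0.2005, 95% interval 0.50 to 1.35), with a limma adjusted p of 0.0526, just short of the threshold. It was called with quantile normalization (log2 0.97, adjusted p = 0.0394) and with a filter at 5 TPM (0.93, adjusted p = 0.0453), but not with the deposited TPM (0.89, adjusted p = 0.208). Leaving out 1 library in turn gave log2 values from 0.77 to 1.08 and limma adjusted p from 0.0505 to 0.325. Hlf at ZT22 was higher in old by log2 0.70 (SE 0.319, unadjusted p = 0.0447, limma adjusted p = 1). Whether the age difference varied over the 6 times was tested in 1 limma F test per gene, and Nfil3 had an unadjusted p of 0.0287 and an adjusted p of 1, with 0.0163% of genes called.

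Other transcripts were also high in the old ZT10 libraries, where 0.449% of all tested genes were called higher and 0.0816% lower. Acute phase protein genes, which an inflamed liver raises, summed to 57451 and 28504 scaled TPM over 17 genes in the 2 old ZT10 libraries, to 15134 and 13891 in young ZT10 and to between 15123 and 33655 in the other old libraries, and 7 of 17 were called higher in old at that time. Neutrophil markers summed to 105 and 138 against 3.69 and 4.43 in young ZT10 and at most 109 in the other old libraries, with 1 of 3 tested genes called higher and 1 of the 8 markers at 0 in every old library (3 in every young one). Kupffer cell and macrophage markers summed to 727 and 1015 against 441 and 398 in young ZT10 and at most 603 in the other old libraries, with 3 of 9 tested genes called higher. The part of these cells and of inflammation in the ZT10 value of Nfil3 was not tested. Without old ZT10, a choice made after seeing the data, the old amplitude of Nfil3 was 1.73 with a limma adjusted p of 0.0976.

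Because TPM are per transcript length, the 3 activators can be summed and set against Nfil3, as a description with no test. In young liver the sum was 12 and 16 scaled TPM at ZT2 and 187 and 215 at ZT10. In old liver it was 15.7 and 21.2 at ZT2 and 161 and 179 at ZT10. At ZT10 Dbp made up 51.7% of the sum in young and 51.0% in old, and Tef 40.1% and 42.2%. The make-up was different at ZT2, when Dbp was 5.19% and 6.81% of the sum, and Tef and Hlf together held nearly all of it. From ZT14 to ZT22 Tef was the largest of the 3 at both ages, with 58.2% to 68.9% in young and 54.2% to 67.7% in old. Hlf was 42.8% of the sum at ZT2 in young and 50.6% in old, and 8.18% and 6.74% at ZT10.

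Activator transcripts outnumbered those of Nfil3 at ZT6, ZT10, ZT14 and ZT18 in each of the 16 libraries, and Nfil3 outnumbered them in each of the 4 libraries at ZT2. At ZT22 activators were above Nfil3 in 3 libraries and below it in 1, a young one with a ratio of 0.847. The ratio of the sum to Nfil3 was 0.302 and 0.529 at ZT2 in young and 0.455 and 0.578 in old. At ZT10 it reached 31.8 and 40.8 in young against 13.1 and 18.2 in old, so the old libraries lay below the young ones without overlap. They did so at ZT18 too, with 2.86 and 2.91 in young and 2.29 and 2.84 in old. No share over all genes was computed for such a ratio. Among single genes at ZT10, old lay below young without overlap for 19.8% and above for 16.1%. The ZT10 ratio also holds the Nfil3 values described above. At ZT6 it was 10.1 and 10.4 in young and 10.2 and 13.5 in old, which overlap.

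**Figure D3:**
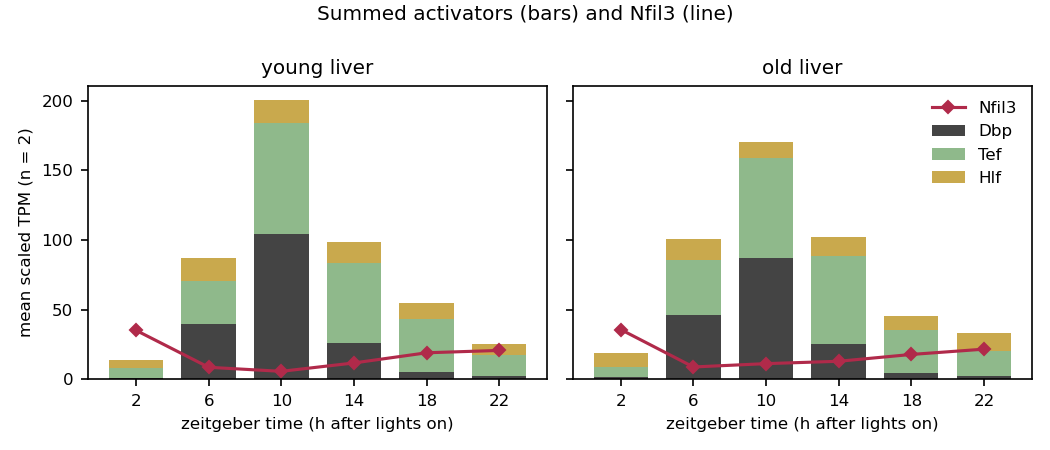
Mean scaled TPM (n = 2 libraries) of Dbp, Tef and Hlf stacked as bars, with Nfil3 as a line, at each zeitgeber time in young (left) and old (right) liver. Bars start at 0. The stack is tallest at ZT10, at a mean of 201 in young and 170 in old, and Nfil3 lies above the stack only at ZT2.

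Across the 6 group means of an age, Dbp and Nfil3 were nearly mirror images, with Pearson's r of -0.99 in young and -0.93 in old. Dbp and Tef correlated at 0.89 and 0.90. Hlf correlated with Dbp at 0.95 in young and 0.56 in old, and with Nfil3 at -0.92 and -0.74. These correlations over 6 points are descriptions, and the points share libraries and scaling.

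The regulators of the members were described through a list of 11 E-box clock genes and through the REV-ERB genes. Of the 9 tested E-box clock genes, 8 were rhythmic in young and 7 in old, 7 at both ages, and 0 differed with age in level or rhythm. The shares of all tested genes called rhythmic were 10.7%, 8.96% and 5.46%. Arntl, which encodes BMAL1, had an amplitude of 4.90 in young and 5.0 in old. It peaked at ZT 22.98 and 22.60, near the fitted peak of Nfil3. The repressor Per2 peaked at ZT 15.39 and 15.03, after Tef, and Cry1 at ZT 20.20 and 19.73. Ciart, a repressor of the same loop, peaked at ZT 11.60 and 11.85, between Dbp and Tef.

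Both REV-ERB genes were rhythmic at both ages by limma, against 5.46% of all tested genes. Nr1d1 (REV-ERBalpha) peaked at ZT 7.56 in young and 7.21 in old with amplitudes of 5.93 and 5.74, and Nr1d2 (REV-ERBbeta) at ZT 9.81 and 9.63. Nfil3, which these factors repress, had its lowest group means at ZT10 in young and ZT6 in old. At ZT10, where Nfil3 was higher in old without reaching the threshold, the age differences of Nr1d1 and Nr1d2 were log2 -0.41 and -0.24 (limma adjusted p = 0.926 and 0.936). A link between these values and that of Nfil3 was not tested.

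Clock genes with known D-boxes formed a list of 8 that shares members with the lists above. Of its 7 tested genes, 6 were rhythmic at both ages, against 5.46% of all tested genes. The median amplitude was 3.09 in young and 3.10 in old, against 0.44 and 0.39 for all tested genes. These genes were listed as parts of the clock, so their high amplitude is no separate result. Per3, a target of the D-box, peaked at ZT 12.65 and 12.39, close to Tef, and Per1 at ZT 12.67 and 12.53. Letters of the D-box were found in the promoter windows of 2 of the 7 genes that have one, Per1 and Per3. They are shown because Per3 carries a pair of them, with capitals on the motif.
Per3, farther site, minus strand, chr4:151044852-151044881: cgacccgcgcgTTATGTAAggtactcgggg
Per3, nearer site, minus strand, chr4:151044805-151044834: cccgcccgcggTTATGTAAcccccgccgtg
Per1, plus strand, chr11:69098914-69098943: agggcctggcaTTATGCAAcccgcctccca

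Liver outputs credited to PAR bZIP factors were described in 3 lists with 51 tested genes, of which 17 were rhythmic in young, 23 in old and 15 at both ages. Of all 12261 genes, 10.7% (1316) were called in young, 8.96% (1098) in old and 5.46% at both ages. More of the 51 were thus called in old than in young, and fewer of all genes, a contrast that was not tested. None of the 51 passed the limma test of a rhythm difference, and 0 of all 12261 genes did. An unadjusted p under 0.05 was seen for 7 of the 51 (13.7%) and for 429 of all genes (3.5%). The 7 were Acot1, Acot2, Cyp4a10, Cyp4a31, Cyp4a32, Nr1i2 and Tyms. Most are thus related copies of the Acot and Cyp4a families and not independent, and the 2 shares were not tested against each other. Cyp4a10, Cyp4a31, Cyp4a32 and Tyms were called rhythmic at neither age. Of the 15 genes rhythmic at both ages, 13 peaked in young liver after Dbp and within 8 h of it. The 8 h window was not part of the plan, and no share of all rhythmic genes peaking in it was computed. Peaks of the 15 were later in old for 10 and earlier for 5, with a median shift of 0.57 h and a range from -1.4 to 1.49 h. No test was run on this shift.

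The drug metabolism list had 27 tested genes, with 6 rhythmic in young, 9 in old and 5 at both ages. Of all tested genes, 10.7%, 8.96% and 5.46% were so called. Cyp2a5, coumarin 7-hydroxylase, peaked at ZT 13.84 in young and 13.64 in old with amplitudes of 2.69 and 2.35 (limma adjusted p = 2.78e-06 and 1.86e-05). Por, the electron donor of microsomal cytochromes P450, peaked at ZT 11.30 and 12.32, and Alas1, the rate-limiting enzyme of heme synthesis, at ZT 12.42 and 13.51. Ces1d, a carboxylesterase, peaked at ZT 17.90 and 18.17, well after the activators. Reads of Cyp2a5 may be split with its near-identical copy Cyp2a4, so its level is uncertain. For age, 2 of 27 were called higher in old and 0 lower, against 1.14% and 0.498% of all tested genes. The cytochrome P450 gene Cyp2b9 went from 0.907 ± 1.45 to 8.44 ± 6.78 scaled TPM and the carboxylesterase Ces1e from 145 ± 16.5 to 195 ± 31.1 (SD, n = 12 per age).

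Lipid and bile acid genes, 15 of them tested, had 5 rhythmic in young and 8 in old, 4 at both ages. The shares of all tested genes were 10.7%, 8.96% and 5.46%. Cpt1a, which admits fatty acids to mitochondria, peaked at ZT 8.88 in young and 9.70 in old, before Dbp. Cyp7a1, the rate-limiting enzyme of bile acid synthesis, peaked at ZT 15.45 and 14.05. Acot3, an acyl-CoA thioesterase, peaked at ZT 13.19 and 14.17. For age, 4 of 15 were called lower in old and 0 higher, against 0.498% and 1.14% of all tested genes. The 4 were Cyp4a10, Cyp4a31 and Cyp4a32, which are fatty acid omega-hydroxylases, and Acot1, an acyl-CoA thioesterase. Cyp4a10 went from 160 ± 51 to 66.2 ± 28.8 scaled TPM (SD, n = 12 per age), and Acot1 from 23.0 ± 5.15 to 15.0 ± 7.34. The Cyp4a genes are close copies of each other, so their single levels are uncertain. The median age difference of the list was log2 -0.37, against -0.01 for all tested genes. Acot1 had an amplitude of 0.32 in young (limma adjusted p = 0.606) and 1.88 in old (adjusted p = 3.76e-05), and the difference had an unadjusted p of 0.00021 that did not pass over all genes.

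The remaining D-box outputs had 9 tested genes, 6 of them rhythmic at both ages and 0 called for age. Of all tested genes, 5.46% and 1.64% were so called. Usp2, a ubiquitin protease, had the widest range, with amplitudes of 4.54 and 4.90 and peaks at ZT 13.45 and 14.02. Wee1, a kinase that restrains mitosis, peaked at ZT 13.20 and 13.29, and Upp2, a uridine phosphorylase, at ZT 11.42 and 11.29. Avpr1a, a vasopressin receptor, ran opposite, with peaks at ZT 23.61 and 23.57, close to the fitted peak of Nfil3.

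D-box letters were found in the promoter windows of 8 of the 41 output genes that have one (19.5%), against 4.67% of all genes with a window. Of those 8, 1 (12.5%), Cyp2a5, was rhythmic in young liver, against 17 of all 51 tested output genes and 10.7% of all tested genes. The 8 include the near-identical copies Cyp2a4 and Cyp2a5, and the lists were chosen as outputs of PAR bZIP factors. Albumin (Alb), which gave Dbp its name, held 2 matches and had an amplitude of 0.27 in young and 0.31 in old (limma adjusted p = 0.579 and 0.549). The windows of Cyp2a5 and Alb are shown to set a transcript called rhythmic beside one that was not, with the D-box in capitals.
Cyp2a5, plus strand, chr7:26835257-26835286: aggtgaaatagTTGCATAAtcaagaccaaa
Alb, farther site, plus strand, chr5:90460636-90460665: agattaagctcTTATGTAAaatttgctgtt
Alb, nearer site, plus strand, chr5:90460655-90460684: aatttgctgttTTACATAActttaatgaat

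The list of genes repressed by NFIL3 held 8, with 6 tested, 4 rhythmic in young and 2 in old. Of all tested genes, 10.7% were called in young and 8.96% in old. Per2 and Cyp7a1 were rhythmic at both ages, as given above. Pck1, a gluconeogenic enzyme, peaked at ZT 6.69 in young (amplitude 3.02, limma adjusted p = 0.00772) and had an amplitude of 2.01 in old (adjusted p = 0.103). Fdps, an enzyme of cholesterol synthesis, peaked at ZT 22.28 in young, near the fitted peak of Nfil3. Its amplitude in young was 1.60 (limma adjusted p = 0.00128). None of the 6 differed with age in level or rhythm by limma.

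**Figure D4:**
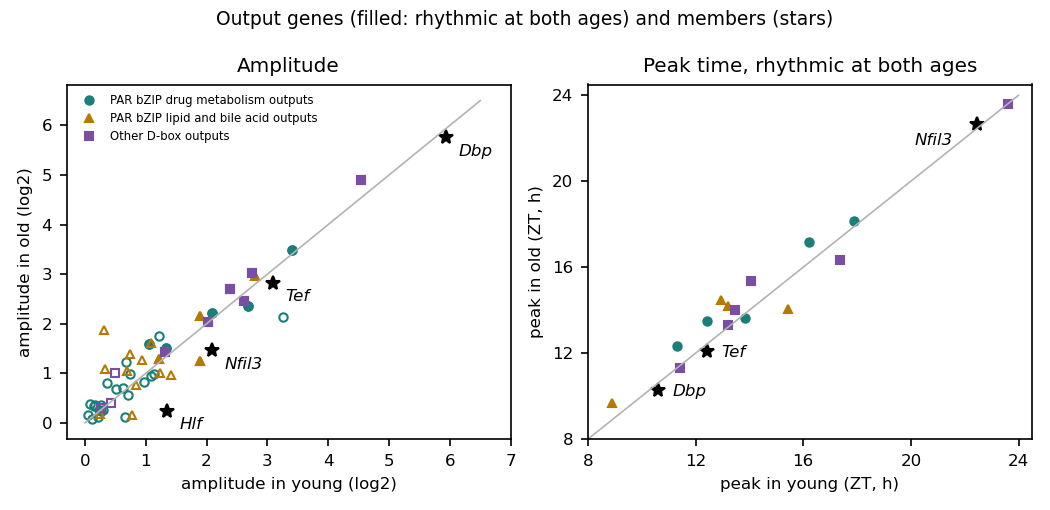
Fitted amplitude (left, log2) and fitted peak time (right, zeitgeber time in h) in old against young liver for the 3 lists of output genes, with members as stars and a line of equality. Filled symbols are the 15 genes rhythmic at both ages, and the right panel shows these and the members other than Hlf. Most symbols lie near the line, Hlf lies below it at 1.35 in young and 0.25 in old, and most output peaks fall between those of Dbp and ZT 18.

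Genes whose pattern was most like each member were ranked by Pearson's r over the 12 group means, among 8177 genes with a mean of at least 5 scaled TPM, as a description. Closest to Dbp were Pla2g12a, a secreted phospholipase (0.954), Stbd1, a glycogen-binding protein (0.949), and Upp2 (0.931), and 2 of the first 5 were predicted genes. Closest to Tef were the repressor gene Bhlhe40 (0.94), liver glycogen synthase Gys2 (0.935), Serpina6, which encodes corticosteroid-binding globulin (0.925), the phosphate transporter Slc20a1 (0.918) and Upp2 (0.917). Closest to Hlf were Rnf43 (0.892), Plekha6 (0.825), Inhbe (0.812), Inpp5a (0.81) and Paqr7 (0.809), so Hlf had less close neighbours than the other 3. Of these 5, Inhbe and Paqr7 were called rhythmic in young by limma and 0 of 5 in old, where Inhbe was just short (adjusted p = 0.0541). The 5 were chosen for matching Hlf at both ages, so these calls are no separate result.

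Nfil3 was followed most closely by Nedd4l, a ubiquitin ligase (0.914), the sialyltransferase St3gal1 (0.913), Pdk4, which switches off pyruvate dehydrogenase (0.908), the ornithine carrier Slc25a15 (0.904) and Sdr9c7 (0.901). Pdk4 was also among the 3 genes most opposite to Dbp (-0.965), with Rnf144b (-0.965) and Caprin1 (-0.955). Most opposite to Nfil3 were Stbd1 (-0.955), Pank2 (-0.926) and the iron exporter Slc40a1 (-0.906). Stbd1 thus stood near Dbp and opposite Nfil3, and Pdk4 the other way round.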

How the data were processed

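The submitters' processing notes name HISAT2 (a read aligner), StringTie (a transcript quantifier) and the build GRCm38. Versions, the annotation and the strand setting are not given in the sources used here. Libraries were oligo-dT selected, strand-specific and read from a single end, per the labels' protocols. The deposited TPM sum to 1000000 per library. The deposited FPKM served as an alternative unit. The deposited coverage, which is not scaled for depth, was used only for the depth estimate (99th percentile of its ratio to FPKM among genes above 1 FPKM), and without read counts no counting error could be given.

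Entries with the same identifier were summed. TPM were divided by median-of-ratios factors (0.813 to 1.223) over 13270 genes above 0 in all 24 libraries. The filter on low values asked for a mean of 1 TPM or more, which left 12261 genes. Models in limma 3.58.1 (R 4.3.3, intensity trend) took log2(scaled TPM + 0.5) on 12 groups (12 residual degrees of freedom) or a 24-h cosine and sine per age (18). A fold change on this scale understates that of low genes such as Dbp at ZT2. SE of amplitudes and peak times came from the delta method. Adjustment was Benjamini-Hochberg over all genes tested. The fits were tested on simulated data.

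Members and lists were chosen with earlier results of these data known. Named genes are the members, up to 4 per list with the smallest p, genes counted when 5 or fewer, and the most similar patterns, with predicted genes counted but not named. Per1, Per3, Alb and Sphk2 were named after their values were seen. Alternatives were other scalings, units, pseudocounts, filters, a replicate block and leaving out libraries or times. Part of the list of REV-ERB and ROR genes is not reported here.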

Additional observations from a re-analysis of the deposited data

How the results depend on the processing

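Of 484 values of the members under alternatives other than leaving out a library, 463 kept their direction and side of the limma threshold, 8 lost a call, 3 gained one and 10 changed sign. The old rhythm of Nfil3 lost its call with the deposited TPM (amplitude 1.26) and FPKM (1.33), without a filter (1.47), without ZT10 at both ages or, chosen after seeing the data, at old age only (1.73 each), and without young ZT18 replicate 2 and old ZT14 replicate 1 (1.45). Its young rhythm (1.80, limma adjusted p = 0.0991) and that of Hlf (1.53) lost their calls without ZT10, where fewer samples are fitted. Nfil3 at ZT10 gained a call with quantile normalization (0.97) and at 5 TPM (0.93). Sign changes were all in values that no fit called: Dbp at ZT14 (0.35 with deposited TPM, 0.19 with FPKM, 0.00037 with quantile normalization), Hlf at ZT14 (0.20 with TPM, 0.049 with FPKM, 0.033 without the 2 libraries), Nfil3 at ZT18 (0.024 with TPM, 0.048 without the 2 libraries), the day average of Dbp (-0.03 without the 2 libraries) and its amplitude difference (0.084 without ZT10). The cause of the changes was not tested.

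Leaving out 1 library in turn moved the old amplitude of Nfil3 from 1.29 to 1.62. Its call was lost in 6 of 24 fits, without old ZT2 replicates 1 and 2, ZT6 replicate 2, ZT10 replicate 1, ZT14 replicate 1 and ZT18 replicate 1, with adjusted p up to 0.0786. No other call of a member was lost. Sign changed in uncalled values, with these ranges. Day averages ran from -0.079 to 0.11 (Dbp) and -0.0076 to 0.11 (Hlf). Amplitude differences ran from -0.62 to 0.40 (Dbp) and -0.58 to 0.049 (Tef). At single times, Dbp ran from -0.31 to 0.25 (ZT14) and -0.68 to 0.45 (ZT22), Tef from -0.17 to 0.37 (ZT2) and -0.032 to 0.64 (ZT22), Hlf from -0.44 to 0.20 (ZT6), -0.48 to 0.13 (ZT14) and -0.41 to 0.026 (ZT18), and Nfil3 from -0.16 to 0.23 (ZT2), -0.21 to 0.25 (ZT6), -0.060 to 0.32 (ZT14), -0.22 to 0.048 (ZT18) and -0.10 to 0.25 (ZT22).

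Counts over all genes moved more. The 201 genes called for age became 116 with a filter at 5 TPM, 117 without ZT10 and 129 without old ZT10 (155 to 223 without 1 library). Young rhythms went from 1316 to 841 by the F test of time and 633 without ZT10 (900 to 1675 without 1 library), and old rhythms from 1098 to 693, 564 and, without old ZT10, 627 (869 to 1135). Rhythm differences, 0 in the fit reported, were 2 by the interaction test, 2 with quantile normalization, 1 at 5 TPM, 1 without ZT10 and 4 without the 2 libraries (0 to 3 without 1 library). The interaction, 2 genes, gave 1 at a pseudocount of 0.1, 17 without a filter and 0 at 5 TPM (0 to 36 without 1 library). The ZT10 age difference, 65 genes, ran from 6 to 62 without 1 library and was 67 without the 2 libraries. Unscaled TPM and FPKM moved the median age difference of all genes from -0.012 to 0.09 and 0.05. No read counts were used, so counting error at low levels such as Dbp at ZT2 is unknown.

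Replicate numbers do not pair the samples by the labels. Deviations of same-numbered libraries correlated above 0.1 in 52 of 66 pairs of groups. With a replicate block, Nfil3 at ZT10 kept its log2 value of 0.93 with a limma adjusted p = 0.0306, 353 genes were called for age and 140 at ZT10, and no other call of a member changed.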

Other observations

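Other bZIP factors that act near the PAR family were listed as 12 C/EBP and related genes, all of them tested. Only Atf5 was called rhythmic in both ages, against 5.46% of all tested genes. It peaked at ZT 1.08 in young and 1.34 in old. That is close to ZT2, where the group means of Nfil3 were highest, and after the fitted peak of Nfil3. In old liver, Cebpb, Cebpd and Cebpe were also called, with amplitudes of 1.12, 1.30 and 0.82 against 0.84, 0.75 and 0.45 in young, where they were not called, and limma called none of the 12 for a difference in rhythm (unadjusted p of 0.243, 0.397 and 0.182). None of the 12 was called for age, and the median amplitude was 0.60 in young and 0.85 in old, below those of Dbp, Tef and Nfil3.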
